A study of Mus musculus with 2 samples.

Results

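Macrophages carrying transcripts of Spp1 or Mmp12 are described here, 174 cells out of 25660 cell barcodes from the mouse gut lamina propria. A cell was counted when it held at least 3 unique molecular identifiers (UMIs, counts of single captured RNA molecules) of Spp1 and Mmp12 together and at least 1 of the macrophage genes Csf1r, Cd14, Lyz2 and Cd68. It also had to lack UMIs of Flt3 (dendritic cell precursors and dendritic cells), Cd3e and Cd3g (T cells) and Cd79a (B cells), and to hold under 50 UMIs of the neutrophil genes S100a8 and S100a9. Barcodes with under 500 UMIs, under 200 genes or over 10% mitochondrial UMIs were left out. The cells were chosen by their Spp1 and Mmp12 UMIs and those of the other genes of the rule, so the levels of these genes, and the number of cells found, are given as description.

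There were 2 libraries, CD163_FL and CD163_NC, with 1 library per group. Both held CD45+ cells, that is, cells with the surface protein common to blood-derived cells, from the lamina propria of the mouse colon, taken from a Percoll gradient and sorted with exclusion of dead cells. The study is titled as one of wild-type animals and of animals that lack CD163+ macrophages. The labels do not tie either library to either kind of animal, nor give strain or age, the way the cells were removed, or the number of animals pooled, so no genotype is assigned to either library. Because there is 1 library per group, no test between groups was possible, no p-value is given, and every difference compares these libraries, with intervals (95%) that cover counting error only. Cd163 itself, a scavenger receptor for haemoglobin bound to haptoglobin, had 0 UMIs in the Spp1/Mmp12 macrophages of CD163_FL and 0 in those of CD163_NC, which at a floor of 3 UMIs allows up to 2.33 and 22.9 CPM (UMIs of a gene scaled to a total of 1e+06). Macrophages without Spp1 or Mmp12 had 1 Cd163 UMI in CD163_FL and 5 in CD163_NC, so the gene could not check the labels.

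Spp1 encodes osteopontin, a secreted glycoprotein that binds integrins and CD44 and is made by activated and tissue-remodelling macrophages as well as by bone cells. Mmp12 encodes macrophage metalloelastase, a secreted metalloproteinase that cleaves elastin and other matrix proteins. Macrophages of the gut lamina propria are renewed in large part from Ly6C-positive blood monocytes, which gain MHC class II and later complement C1q as they mature. Slc7a11 encodes the light chain of the cystine-glutamate exchanger xCT, which brings in cystine for glutathione synthesis, and Plcb1 a phospholipase C that acts below G protein-coupled receptors. Slc7a11 and Plcb1 are listed with Spp1 and Mmp12 as markers of the cells.

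The promoters of the genes behind the name are shown so that the matches to 3 short motifs can be seen in their context. Each window runs from 250 bases before to 50 bases after a transcription start in the RefSeq table for GRCm38.p6, 5′ to 3′ on the gene's strand. The motifs searched on both strands were AP-1 (TGANTCA), PU.1 (GAGGAAGT) and the amino acid response element (TGATGCAA), which occurred in 7.81%, 3.20% and 0.895% of 32851 promoter windows. AP-1 factors respond to stress and cytokines, PU.1 is the main transcription factor of the myeloid lineage, and the amino acid response element is bound by ATF4, a known activator of Slc7a11. Capitals mark the matches.
Spp1, chr5:104434861-104435160, plus strand: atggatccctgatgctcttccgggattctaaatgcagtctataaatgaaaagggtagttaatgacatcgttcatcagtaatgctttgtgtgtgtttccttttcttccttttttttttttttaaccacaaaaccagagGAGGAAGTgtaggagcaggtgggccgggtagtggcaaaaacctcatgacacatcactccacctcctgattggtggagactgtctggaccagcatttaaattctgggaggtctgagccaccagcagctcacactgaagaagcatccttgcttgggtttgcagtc
Mmp12, chr9:7347124-7347423, plus strand: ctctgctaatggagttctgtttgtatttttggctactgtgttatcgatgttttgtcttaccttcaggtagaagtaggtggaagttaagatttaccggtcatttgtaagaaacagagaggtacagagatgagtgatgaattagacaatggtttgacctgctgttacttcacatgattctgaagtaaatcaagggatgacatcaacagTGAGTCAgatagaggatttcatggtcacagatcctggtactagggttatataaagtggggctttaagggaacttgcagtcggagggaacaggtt
Slc7a11, chr3:50443564-50443863, minus strand: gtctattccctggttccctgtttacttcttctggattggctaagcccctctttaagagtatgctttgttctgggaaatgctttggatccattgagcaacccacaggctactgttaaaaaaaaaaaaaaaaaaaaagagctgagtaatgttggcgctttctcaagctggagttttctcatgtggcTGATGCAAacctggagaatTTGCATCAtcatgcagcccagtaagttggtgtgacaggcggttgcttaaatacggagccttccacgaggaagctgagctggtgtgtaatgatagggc
The Spp1 window held 1 match to PU.1 letters and the Mmp12 window 1 match to AP-1. The Slc7a11 window held 2 matches to the amino acid response element. A further start of Spp1 in the table (window chr5:104435942-104436241) had no match, and a further start of Mmp12 (window chr9:7344147-7344446) had 1 match to PU.1. The window of Plcb1 had no match. These matches are letters in a window and say nothing about binding in these cells.

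CD163_FL held 159 of the Spp1/Mmp12 macrophages and CD163_NC 15. Spp1 (chromosome 5, 104435118 to 104441050, plus strand) was the more common of the genes. In CD163_FL it was seen in 117 of 159 cells, with a median of 5 and a highest count of 57 UMIs per cell, and in CD163_NC in 11 of 15 cells, with a median of 4 and a highest count of 8. Mmp12 (chromosome 9, 7344381 to 7369499, plus strand) was seen in 64 of 159 cells of CD163_FL with up to 110 UMIs, and in 4 of 15 cells of CD163_NC with up to 32. A few cells made a large part of the Mmp12 signal: in CD163_NC 69.6% of its UMIs came from 1 cell. As summed levels, Spp1 stood at 941 CPM (889 to 996) in CD163_FL and 436 CPM (330 to 565) in CD163_NC, and Mmp12 at 717 CPM (672 to 765) and 352 CPM (258 to 469). At the edge of the rule, CD163_FL had 37 cells with 2 UMIs, just outside, and 22 cells with 3 UMIs, just inside, against 4 and 4 in CD163_NC. The cells just inside held more RNA of the macrophage genes in CD163_FL, with a median of 46.5 UMIs, against 12 in the cells just outside. In CD163_NC the medians were 40.5 and 62.5 UMIs.

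**Figure D1:**
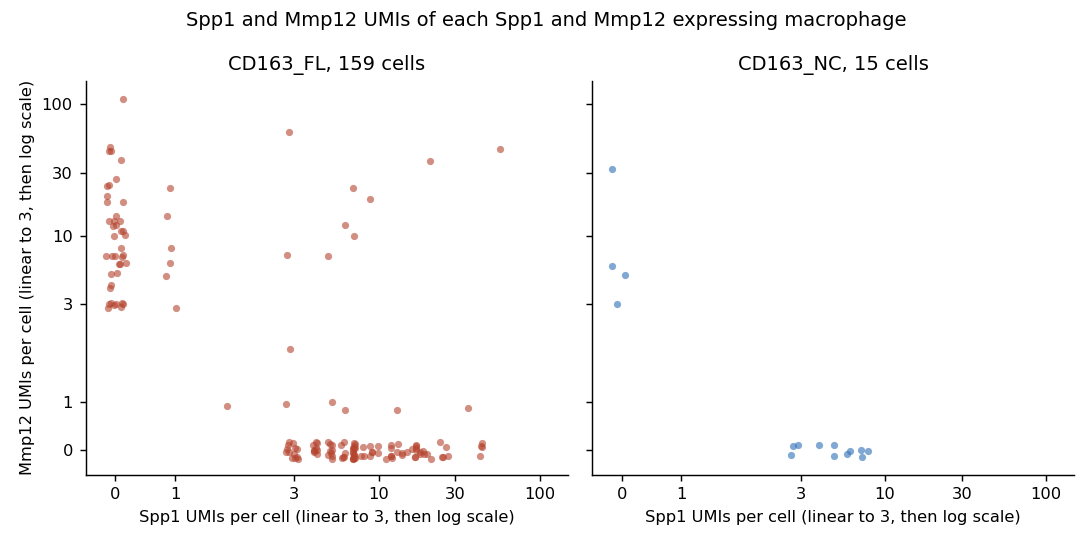
UMIs of Spp1 (x axis) and Mmp12 (y axis) in each Spp1/Mmp12 macrophage of CD163_FL (left, 159 cells) and CD163_NC (right, 15 cells), both axes linear up to 3 and logarithmic beyond, with points jittered slightly. Most points lie along 1 of the 2 axes, and 22 cells of CD163_FL and 0 of CD163_NC carry both transcripts.

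Spp1 and Mmp12 were mostly found in different cells. In CD163_FL 95 cells (59.7%) held Spp1 and no Mmp12 UMI, 42 (26.4%) held Mmp12 and no Spp1 UMI, and 22 (13.8%) held both. CD163_NC had 11, 4 and 0 such cells. The rule selects cells on the sum of the genes, so the comparison was repeated among all cells with at least 10 UMIs of the macrophage genes and the same exclusions. There, Mmp12 was detected in 17 of 137 CD163_FL cells with a Spp1 UMI (12.4%, exact binomial interval 7.40 to 19.1) and in 56 of 516 without (10.9%, 8.30 to 13.9). In CD163_NC the shares were 0 of 30 (interval up to 11.6%) and 4 of 248 (1.61%). A Spp1 UMI thus did not go with a measurably different share of Mmp12-positive cells in CD163_FL at this depth.

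Spp1/Mmp12 macrophages made up 1.11% (0.941 to 1.29) of the 14379 CD163_FL cells within the quality limits and 0.150% (0.0839 to 0.247) of the 10012 CD163_NC cells, a ratio of 7.38 (log-normal interval 4.35 to 12.5). The ratio was smaller among cells rich in macrophage transcripts. Of those with at least 10 UMIs of the macrophage genes they were 121 of 653 (18.5%, 15.6 to 21.7) in CD163_FL and 14 of 278 (5.04%, 2.78 to 8.31) in CD163_NC, a ratio of 3.68 (2.16 to 6.28). Free RNA can place UMIs in cells that do not make a transcript. T and B cells also held UMIs of Spp1 and Mmp12, and how many of these came from free RNA was not tested. In CD163_FL 0.761% of 4996 T cells and 0.663% of 1508 B cells had at least 3 Spp1 and Mmp12 UMIs, and in CD163_NC 0.132% of 2271 T cells and 0.146% of 2744 B cells. The shares in T and B cells were thus also higher in CD163_FL, and well under the share in macrophage-gene cells of the same library. Set against all cells within the quality limits, they lay below the 1.11% of Spp1/Mmp12 macrophages in CD163_FL and near the 0.150% in CD163_NC. The ratio of 7.38 therefore comes beside a difference in the same direction in T and B cells. Median depth was 8220 and 12886 UMIs in the T and B cells of CD163_FL, 6269 and 9164 in those of CD163_NC, and 8057 and 9886 in the Spp1/Mmp12 macrophages of CD163_FL and CD163_NC. With every cell thinned to 1000 UMIs, 43 of 14104 cells of CD163_FL and 1 of 9458 of CD163_NC met the rule.

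The name macrophage was checked against marker lists of 15 cell types. At least 3 UMIs of the macrophage list (such as Adgre1, Fcgr1, C1qa, Tyrobp and Aif1) were present in 144 of 159 Spp1/Mmp12 macrophages of CD163_FL and 15 of 15 of CD163_NC, at summed levels of 3718 and 9593 CPM. Under 10% of T cells reached that count. Monocyte genes, led by Ly6c2 and Plac8, were present too, in 139 of 159 and 14 of 15 cells, but 85.1% of the CD163_FL T cells also reached 3 UMIs of that list. Markers of mast cells and eosinophils reached 3 UMIs in 0 cells of either library, and those of erythrocytes had 0 UMIs. Dendritic cell markers reached it in 21 of 159 and 0 of 15 cells, T cell markers in 8 and 0, innate lymphocyte markers in 21 and 1, and neutrophil markers in 13 and 4. Plasma cell transcripts, dominated by immunoglobulin, reached it in every cell, at 5900 CPM in CD163_FL and 5952 CPM in CD163_NC. Summed plasma cell levels in macrophages without Spp1 or Mmp12 were 7013 and 6957 CPM. Support for the name was thin in some cells: 23 of 159 cells of CD163_FL and 1 of 15 of CD163_NC had under 5 UMIs of the macrophage genes in the rule, and 37 and 1 had at least 3 UMIs of lymphocyte markers.

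**Figure D2:**
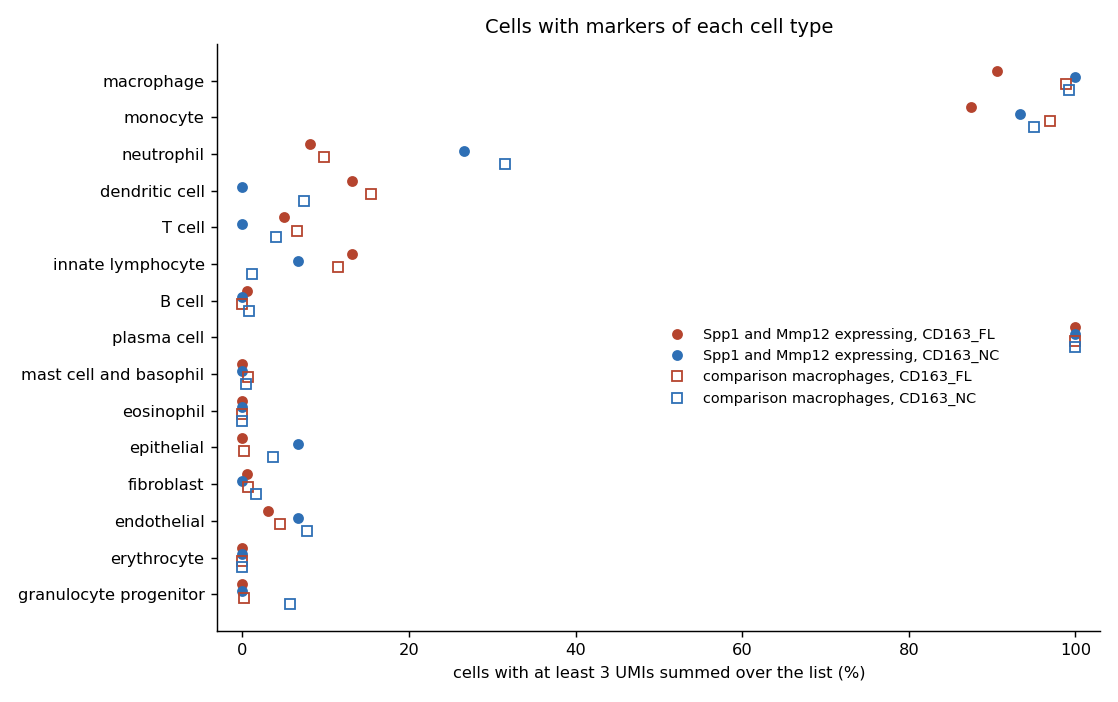
Percent of cells (x axis) with at least 3 UMIs summed over each cell type's marker list (rows), for Spp1/Mmp12 macrophages (filled) and macrophages without either transcript (open) of CD163_FL and CD163_NC. The macrophage list is reached by 144 of 159 and 15 of 15 Spp1/Mmp12 macrophages, and the plasma cell list by every cell of all 4 sets.

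The other listed markers, Slc7a11 and Plcb1, differed more between the libraries than between the Spp1/Mmp12 macrophages and other macrophages. For this the cells were set beside comparison macrophages, 460 in CD163_FL and 244 in CD163_NC, that met the same limits, had at least 10 UMIs of the macrophage genes and no UMI of Spp1 or Mmp12. Slc7a11 (chromosome 3, 49892526 to 50443614, minus strand) stood at 1899 CPM (1825 to 1976) in the Spp1/Mmp12 macrophages and 1552 CPM in the comparison macrophages of CD163_FL, a log2 ratio of 0.29 (0.22 to 0.36). In CD163_NC the levels were 145 CPM (87.5 to 227) and 152 CPM, a log2 ratio of -0.06 (-0.81 to 0.60). Plcb1 (chromosome 2, 134786067 to 135475258, plus strand) was lower in the Spp1/Mmp12 macrophages. It stood at 753 CPM (706 to 802) against 1233 CPM in CD163_FL, and at 191 CPM (124 to 282) against 362 CPM in CD163_NC, log2 ratios of -0.71 (-0.81 to -0.61) and -0.92 (-1.56 to -0.35). Neither gene therefore passed a 2-fold difference between the sets in either library, though the intervals of Plcb1 stayed negative in both. Between libraries, Slc7a11 was higher in CD163_FL by a log2 ratio of 3.71 (3.06 to 4.44) in the Spp1/Mmp12 macrophages and 3.35 in the comparison macrophages, and Plcb1 by 1.98 and 1.77. The same direction was seen outside macrophages, with Slc7a11 at 46.5 CPM in CD163_FL and 4.93 CPM in CD163_NC T cells, and Plcb1 at 21.7 and 7.18 CPM. In CD163_NC 4 of 15 Spp1/Mmp12 macrophages had a Slc7a11 UMI, and 1 cell held 52.6% of these UMIs.

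Few genes set the Spp1/Mmp12 macrophages apart from the comparison macrophages in CD163_FL, and the larger count in CD163_NC rests on few UMIs. A gene was counted when its summed level differed at least 2-fold, among genes with at least 50 UMIs and a mean of 20 CPM, leaving out the genes of the rule. In CD163_FL 35 of 5067 genes (0.691%) were that much higher and 13 (0.257%) that much lower. In CD163_NC, with 15 cells on 1 side, 225 of 5283 (4.26%) were higher and 634 (12%) lower. These 15 cells held 130720 UMIs against 2302118 in the comparison macrophages, so the limit of 50 UMIs was met mainly through the comparison macrophages. The larger count in CD163_NC is therefore not read as a difference between the libraries. Only 2 of 4468 genes (0.0448%) were at least 2-fold higher in both libraries and 2 (0.0448%) lower in both. The higher pair, looked up after its values were seen, was Rnf217, a RING-type ubiquitin ligase, and Arhgap10. Rnf217 stood at 167 CPM against 81.7 CPM in CD163_FL (log2 ratio 1.03, 0.77 to 1.29) and at 91.8 CPM against 28.2 CPM in CD163_NC (1.70, 0.68 to 2.60). Its CD163_NC level rests on 12 UMIs of 5 cells, 41.7% of them in 1 cell. Arhgap10 stood at 167 CPM against 76.6 CPM in CD163_FL (1.13) and at 53.5 CPM, 7 UMIs of 3 cells, against 23.9 CPM in CD163_NC (1.16, -0.22 to 2.30). The lower pair was Fn1, which encodes the matrix protein fibronectin, and the gene model 9930111J21Rik2. Fn1 stood at 83.7 CPM against 169 CPM in CD163_FL (-1.01, -1.32 to -0.72) and at 22.9 CPM, 3 UMIs of 1 cell, against 160 CPM in CD163_NC (-2.80). With Spp1/Mmp12 macrophages carrying lymphocyte markers left out, 0 genes were at least 2-fold higher in both libraries and 10 lower. The comparison macrophages kept their lymphocyte-marked cells there, so the sets were not matched. With comparison cells taken from 3 macrophage UMIs upward 107 were lower in both.

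Differences that stayed within 2-fold in CD163_FL but went the same way in both libraries included signalling genes. Nedd4l, a ubiquitin ligase for membrane transporters, stood at 278 CPM against 159 CPM in CD163_FL and 199 CPM against 83.0 CPM in CD163_NC, log2 ratios of 0.80 and 1.26. Its CD163_NC level rests on 26 UMIs of 5 cells, 42.3% of them in 1 cell. Eps8, an actin-regulating adaptor of receptor tyrosine kinases, stood at 863 CPM against 569 CPM and at 727 CPM against 253 CPM (0.60 and 1.52). The translation initiation factor gene Eif4e, at 795 CPM against 538 CPM and 788 CPM against 402 CPM, was in the same group, with Plcl1, Chst11, Srsf11, Errfi1, Oasl1, Lrmda and Sertad2. On the lower side stood Ccl6, a chemokine, at 227 CPM against 313 CPM in CD163_FL and 184 CPM against 370 CPM in CD163_NC (-0.46 and -1.01), and Cybb, the catalytic chain of the phagocyte NADPH oxidase, at 1342 CPM against 1618 CPM and 727 CPM against 1046 CPM (-0.27 and -0.52). Saa3, Nrg1, Cxcl9, Slc20a1, Tmcc1, Rin3, Rdx and Stxbp6 were also lower in both libraries, but on few UMIs in CD163_NC. There the Spp1/Mmp12 macrophages had 0 UMIs of Rdx and of Stxbp6 and 1 each of Saa3 and Nrg1. Slc20a1 and Rin3 had 4 each, Tmcc1 8, and Cxcl9 23, 82.6% of them in 1 cell. In the comparison macrophages 1 cell held 34.8% of the Saa3 UMIs in CD163_FL and 55.2% in CD163_NC.

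By role, hardly any list of genes passed the 2-fold mark against comparison macrophages in CD163_FL. None of 7 tested osteopontin receptor genes, 7 metalloproteinases, 14 lipid-associated macrophage genes, 13 cystine and Nrf2 genes, 10 MHC class II and costimulation genes or 14 dissociation stress genes did. Over all 5067 genes tested only 0.691% were higher and 0.257% lower, so lists this short with none are not set apart from genes at large. Exceptions in the other lists were Timp1, an inhibitor of metalloproteinases, at 47.3 CPM against 18.7 CPM (log2 ratio 1.34), with Fn1 and the cytokine gene Il23a (-1.05) on the lower side. 36.1% of the Timp1 UMIs came from 1 cell. In CD163_NC 4 of 13 lipid-associated genes (Gpnmb, Fabp5, Cd63 and Abca1) were higher and Lpl lower, and 5 of 8 cell cycle genes were lower. There, 3 of 9 checkpoint genes were higher, 1 metalloproteinase was higher and 2 were lower of 7, and 2 of 10 resident macrophage genes were lower. In each remaining functional list of that library no more than 2 genes passed 2-fold in either direction. In that library 14 of 244 comparison macrophages carried granulocyte progenitor markers (summed level 1377 CPM), against 0 of 15 Spp1/Mmp12 macrophages (15.3 CPM), and without these 14 cells 2 lipid-associated genes of 13 were higher, 1 was lower, 2 of 5 cell cycle genes and 3 of 7 metalloproteinases were lower, and 0 of 9 checkpoint genes were higher. Over all 4911 genes tested without them 155 (3.16%) were higher and 500 (10.2%) lower. Complement C1q, a product of mature gut macrophages, reached 3 UMIs in 33 of 159 Spp1/Mmp12 macrophages of CD163_FL (20.8%, 14.7 to 27.9) against 66 of 460 comparison macrophages (14.3%, 11.3 to 17.9). The CD163_NC shares were 4 of 15 (26.7%) and 80 of 244 (32.8%). Il1b, the gene of the inflammatory cytokine interleukin 1 beta, reached 3 UMIs in 132 of 159 (83.0%) and 424 of 460 (92.2%) cells of CD163_FL. In CD163_NC it did so in 12 of 15 (80%) and 171 of 244 (70.1%) cells. The sets were not gated alike for these shares. Comparison macrophages needed at least 10 UMIs of the macrophage genes, while 38 of the 159 Spp1/Mmp12 macrophages of CD163_FL had under 10. The part of this in the shares was not tested. All 33 C1q-carrying Spp1/Mmp12 macrophages of CD163_FL were among the Il1b-carrying cells, as were 61 of the 66 C1q-carrying comparison macrophages. In CD163_NC 3 of 4 and 67 of 80 were.

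Cells with Spp1 alone and cells with Mmp12 alone differed in a small set of genes. In CD163_FL 66 of 3289 genes (2.01%) were at least 2-fold higher in the 95 Spp1-only cells and 52 (1.58%) at least 2-fold lower than in the 42 Mmp12-only cells. CD163_NC had too few cells for this comparison. Chil3, which encodes the chitinase-like protein Ym1 of monocytes and macrophages, stood at 274 CPM in Spp1-only and 43.9 CPM in Mmp12-only cells (log2 ratio 2.64, 1.89 to 3.50). Olr1, a scavenger receptor for oxidised lipoprotein, stood at 101 and 23.4 CPM (2.11), and Igf1r, the receptor of insulin-like growth factor 1, at 113 and 26.3 CPM (2.10). Hmox1, haem oxygenase 1, was at 191 and 46.8 CPM (2.03), with 35.3% of its UMIs in 1 cell. Slpi, a secreted inhibitor of leukocyte proteases, was at 1585 and 767 CPM (1.05), and Slc7a2, a transporter of arginine, at 161 and 49.8 CPM. The Mmp12-only cells were higher in other genes. Creb5, a transcription factor of the CREB family, stood at 238 CPM in Spp1-only and 770 CPM in Mmp12-only cells (-1.69), and Ifitm1, an interferon-induced membrane protein, at 356 and 1106 CPM (-1.64). Abi2, a part of the WAVE actin-regulating complex, Klf7, a transcription factor, and Hspa1a, an inducible heat shock protein, had log2 ratios of -1.50, -1.35 and -1.52, and Aff3, a nuclear protein, one of -1.97. Of the Aff3 UMIs of all Spp1/Mmp12 macrophages of CD163_FL, 45.45% came from 1 cell, and of those of Hspa1a 29.39%.

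Among the fixed lists, another metalloproteinase and nitric oxide synthase stood with Mmp12. Mmp13, a collagenase, was at 14.4 CPM in Spp1-only and 114 CPM in Mmp12-only cells (-2.99, -4.10 to -1.99), and Nos2, inducible nitric oxide synthase, at 20.9 and 102 CPM (-2.29). Neither Mmp13 nor Nos2 was recomputed under the restrictions given below. The 10 MHC class II and costimulation genes had a median log2 ratio of -0.48 with 0 past 2-fold, and H2-Aa, a class II chain gene, stood at 3411 and 5197 CPM. The 7 monocyte genes had a median of 0.64 with 1, Chil3, past 2-fold, and Ly6c2 stood at 1055 and 679 CPM. Slc7a11 was at 1734 and 2151 CPM, and Plcb1 at 871 and 553 CPM. C1q reached 3 UMIs in 14 of 95 Spp1-only (14.7%), 8 of 22 both-positive (36.4%) and 11 of 42 Mmp12-only cells (26.2%). The median over all 3289 genes was 0.02. Restricting both kinds to cells with at least 10 UMIs of the macrophage genes turned Aff3 to 0.48, left Slpi (0.93) and Abi2 (-0.80) within 2-fold, and moved Slc7a2 to 5.58 and Hmox1 to 1.22. Leaving out cells with lymphocyte markers turned Aff3 to 2.99, left Slpi (0.83) and Ifitm1 (-0.86) within 2-fold, and moved Igf1r to 3.44.

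**Figure D3:**
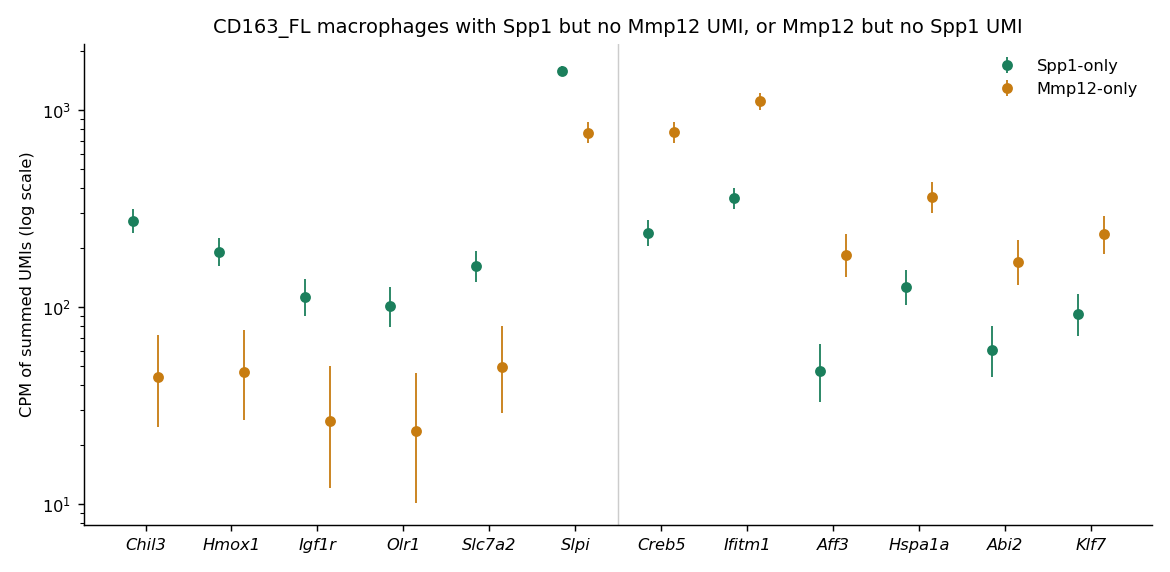
Summed level (CPM, log scale) of 12 genes in CD163_FL cells with Spp1 and no Mmp12 UMI (95 cells) and with Mmp12 and no Spp1 UMI (42 cells), with exact Poisson 95% intervals. Left of the grey line Chil3, Hmox1, Igf1r, Olr1, Slc7a2 and Slpi are higher in Spp1-only cells, and right of it Creb5, Ifitm1, Aff3, Hspa1a, Abi2 and Klf7 are higher in Mmp12-only cells. For Aff3, 1 cell held 45.45% of the UMIs of all CD163_FL Spp1/Mmp12 macrophages.

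Between the libraries, the Spp1/Mmp12 macrophages differed in many genes. Of 3850 genes, 858 (22.3%) stood at least 2-fold above CD163_NC in CD163_FL and 359 (9.32%) at least 2-fold below, and the median log2 ratio was 0.21. The cells held 1289883 UMIs in CD163_FL and 130720 in CD163_NC, so the limit on UMIs per gene was met mainly through CD163_FL. With no filter on low counts 1241 genes were higher and 2555 lower, and at a mean of 200 CPM 158 and 104. The split between higher and lower genes is therefore not read as a difference between the libraries. The comparison macrophages had 609 of 5500 (11.1%) higher and 834 (15.2%) lower, with a median of -0.11, and are given beside each gene below. The list genes counted below passed the same limit. Their counts are read against 22.3% and 9.32%, and a share near these is that of genes at large. Comparison medians of the lists are over the list genes that passed the limit in the comparison macrophages, not always the same genes. Every CD163_NC value of the Spp1/Mmp12 macrophages rests on 15 cells. A scaling by median ratio raised the log2 ratios by 0.303, which makes the split 1231 higher and 192 lower, and by TMM by 0.284 (1203 and 195). The direction of the lists below held under both scalings, except where stated.

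Receptors of osteopontin were higher in CD163_FL, with 4 of 6 tested genes at least 2-fold higher, 0 lower and a median log2 ratio of 1.28 (comparison macrophages 0.82). Cd44, the receptor that also binds hyaluronan, stood at 2968 CPM in CD163_FL and 742 CPM in CD163_NC (2.00, 1.71 to 2.31). Itgav, the integrin alpha V chain, stood at 550 and 138 CPM (2.00), and Itga4 and Itga9, alpha chains of further osteopontin-binding integrins, at 405 and 168 CPM and at 93.0 and 38.2 CPM. In comparison macrophages Cd44 stood at 3077 CPM in CD163_FL and 947 CPM in CD163_NC. Of the other 7 tested metalloproteinases, Mmp19 (109 and 30.6 CPM) and Adam17, the sheddase of tumour necrosis factor (248 and 84.1 CPM), passed 2-fold. Mmp14, a membrane-bound collagenase, stood at 281 and 206 CPM. Mmp13 was at 44.2 and 84.1 CPM, all of its CD163_NC UMIs in 1 cell.

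Genes of cystine uptake and the antioxidant response under the transcription factor Nrf2 were higher in CD163_FL, 5 of 11 at least 2-fold and 0 lower, with a median log2 ratio of 0.84 (1.01). Beside Slc7a11 these were Srxn1, sulfiredoxin, with 80.6 CPM in CD163_FL and 7.65 CPM, 1 UMI, in CD163_NC (3.40, 0.89 to 8.72), Txnrd1, thioredoxin reductase (801 and 306 CPM), Gsr, glutathione reductase (443 and 191 CPM), and Sqstm1, an autophagy adaptor (972 and 459 CPM). Of 6 genes of arginine and itaconate metabolism 5 were higher and 1 lower (median 1.35, comparison 2.24). Acod1, the enzyme that makes itaconate, stood at 2928 CPM in CD163_FL and 719 CPM in CD163_NC (2.03, 1.73 to 2.34), and at 2805 and 327 CPM in the comparison macrophages. Arg2 and Odc1 were higher as well, at 312 and 122 CPM and at 643 and 314 CPM. Slc7a2 stood at 135 CPM in CD163_FL with 0 UMIs in CD163_NC, and Nos2 at 58.1 CPM and 0 UMIs, log2 ratios of at least 2.56 and 1.34 against a floor of 3 UMIs over the 15 cells. Ass1, argininosuccinate synthase, was lower, at 83.7 and 245 CPM.

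Secreted mediators were uneven. Of 16 inflammatory genes 5 stood at least 2-fold above CD163_NC in CD163_FL and 1 below (median 0.60, comparison 1.03), not far from genes at large. Ptgs2, the inducible cyclooxygenase, stood at 3765 CPM in CD163_FL and 612 CPM in CD163_NC (2.62, 2.30 to 2.96), and also differed in T cells, at 89.3 and 13.3 CPM. The neutrophil-attracting chemokine gene Cxcl1 stood at 713 and 76.5 CPM (3.22, 2.33 to 4.29), and its relative Cxcl3 at 218 CPM and 0 UMIs, at least 3.25 against the same floor. The CD163_NC level of Cxcl1 rests on 10 UMIs of 3 cells, 50% of them in 1 cell. Il1a stood at 467 and 115 CPM, while Il1b, at 6074 and 3496 CPM, and Tnf, at 795 and 474 CPM, stayed within 2-fold. Cxcl9, an interferon gamma-induced chemokine, was at 721 and 176 CPM, with 82.6% of its CD163_NC UMIs in 1 cell. Ccl2, a monocyte-attracting chemokine, was lower, at 219 and 880 CPM (-2.00). Growth factor and matrix genes had 4 of 9 higher and 0 lower (median 0.38, comparison 0.36). They were Inhba, the activin A subunit (450 and 45.9 CPM, 3.29), Areg, amphiregulin (91.5 CPM and 15.3 CPM, 2 UMIs), Thbs1, thrombospondin 1 (2134 and 375 CPM, 2.51), and Fn1 (83.7 and 22.9 CPM). The CD163_NC level of Inhba rests on 6 UMIs of 4 cells, 50% of them in 1 cell, and that of Fn1 on 3 UMIs of 1 cell. Fn1 stood at 169 and 160 CPM in comparison macrophages.

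**Figure D4:**
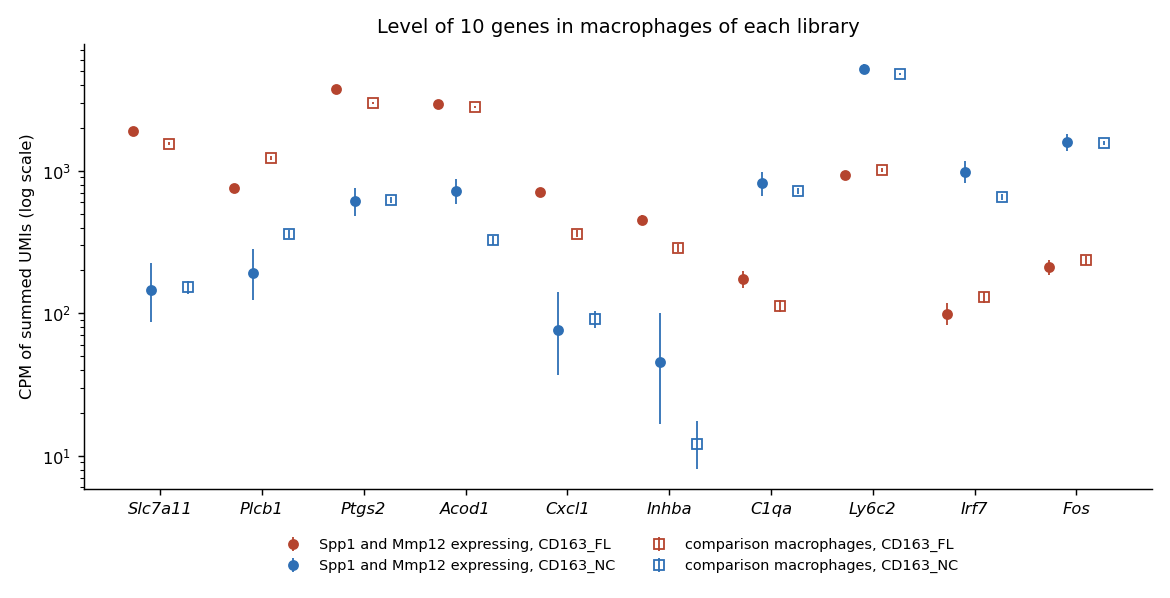
Summed level (CPM, log scale) of 10 genes in Spp1/Mmp12 macrophages (filled circles) and comparison macrophages (open squares) of CD163_FL and CD163_NC, with exact Poisson 95% intervals. Slc7a11, Plcb1, Ptgs2, Acod1, Cxcl1 and Inhba are higher in CD163_FL and C1qa, Ly6c2, Irf7 and Fos lower, in both kinds of cell.

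Part of the markers of mature macrophages and of monocytes stood lower in CD163_FL. Of 8 tested resident macrophage genes 3 were at least 2-fold lower and 0 higher (median -0.63, comparison -1.35). These were C1qa at 173 CPM in CD163_FL and 819 CPM in CD163_NC (-2.24), C1qb at 238 and 727 CPM (-1.61) and C1qc at 107 and 405 CPM (-1.92), and 1 cell held 67.3%, 57.9% and 73.6% of their CD163_NC UMIs. Ly6c2, the monocyte Ly6C antigen, stood at 938 and 5194 CPM (-2.47, -2.61 to -2.33), and Ccr2, the receptor of Ccl2, at 281 and 566 CPM (-1.01). In all 4 of 7 monocyte genes were lower and 0 higher (median -1.01, comparison -0.37), as were 7 of 10 genes of the macrophage marker list (median -1.37, comparison -0.97). Lipid-associated macrophage genes went both ways, 2 higher and 3 lower of 12, with a median of -0.12 that turned to 0.18 under the median-ratio scaling and 0.17 under TMM (comparison 0.47). Apoe, an apolipoprotein, stood at 404 and 1622 CPM, Fabp5, a fatty acid-binding protein, at 70.5 and 444 CPM, and the glycoprotein gene Gpnmb at 86.1 and 206 CPM. Cd9, a tetraspanin, was higher, at 207 and 61.2 CPM, as was Olr1, at 89.9 CPM and 7.65 CPM, 1 UMI.

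Interferon response genes stood both ways, 2 higher and 3 lower of 9 (median -0.61, comparison -0.44), the higher share being that of genes at large. The guanylate-binding protein genes Gbp2 and Gbp5, known to respond to interferon gamma, stood at 1016 and 245 CPM and at 222 and 68.8 CPM. Irf7, a regulator that drives type I interferon genes, stood at 99.2 and 987 CPM (-3.31, -3.68 to -2.95), and differed the same way in T cells, at 29.4 and 106 CPM. Ifit1 and Ifit2, further targets of type I interferon, stood at 33.3 and 130 CPM and at 14.7 and 260 CPM, with 70.6% of the Ifit2 UMIs of CD163_NC in 1 cell. Among 9 checkpoint and regulatory genes, Cd274, which encodes PD-L1 (1492 and 482 CPM), and Il10, a cytokine that restrains macrophages (577 and 191 CPM), were higher, and Socs3 (204 and 666 CPM) and Vsir (64.3 and 161 CPM) lower, with a median of 0.72 (comparison 1.25). MHC class II and costimulation genes had 0 of 10 past 2-fold either way (median 0.39, comparison 0.11).

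The remaining lists follow, the last of them made of genes known to respond to tissue handling. Of 5 osteoclast and fusion genes, Mitf (309 and 91.8 CPM) and Tfec (96.9 and 7.65 CPM, 1 UMI), related transcription factors, were higher (median 0.43). The 8 phospholipase C and protein kinase C genes had 2 higher, Plcb1 and Prkca, and a median of -0.11 that turned to 0.19 under the median-ratio scaling and 0.17 under TMM. Protease inhibitor and plasminogen genes had Timp1 higher of 3 (median 0.92), and cell cycle genes Mki67 of 3 (median 0.07). The comparison median of the cell cycle list, -2.87, was over 8 tested genes, so these medians do not cover the same genes. The comparison macrophages of CD163_NC also include the 14 cells with granulocyte progenitor markers, whose part in that median was not tested. Lysosomal genes had 3 of 13 lower, among them Ctss and Hexa (median -0.56). Hypoxia and glycolysis genes had 7 of 15 lower, among them the glucose transporter gene Slc2a1 and Ldha, lactate dehydrogenase A, with Pfkp higher (median -0.85). The dissociation stress list, immediate early and heat shock genes known to be induced while tissue is digested, had 12 of 14 lower in CD163_FL and 0 higher (median -1.47, comparison -1.03). Fos stood at 212 and 1584 CPM in Spp1/Mmp12 macrophages and at 235 and 1560 CPM in comparison macrophages. The summed stress list stood at 5527 and 14803 CPM in Spp1/Mmp12 macrophages and at 4036 and 10162 CPM in T cells, and its part in the other differences between libraries was not tested.

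**Figure D5:**
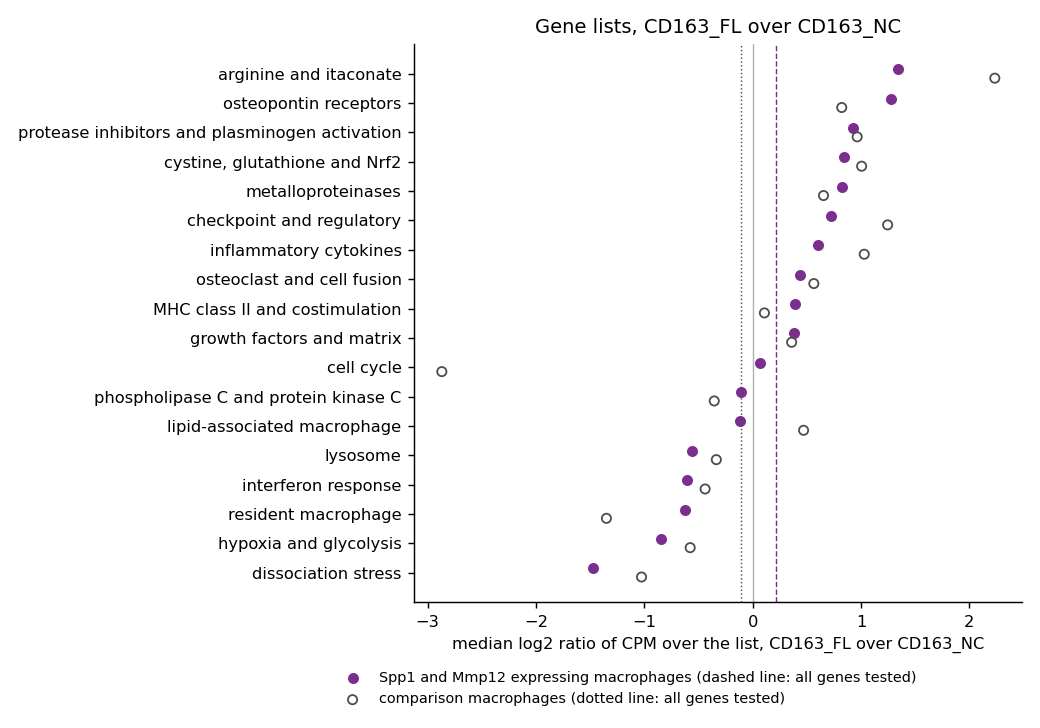
Median log2 ratio of CPM, CD163_FL over CD163_NC (x axis), over the tested genes of 18 lists (rows), for Spp1/Mmp12 macrophages (filled) and comparison macrophages (open). The dashed and dotted lines at 0.21 and -0.11 are the medians over all genes tested, and the medians run from 1.35 for arginine and itaconate to -1.47 for dissociation stress in the Spp1/Mmp12 macrophages.

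Outside the lists, the strongest differences between libraries were found by the bound of the interval nearest 0. Higher in CD163_FL was Phlpp1, a phosphatase of the kinase Akt, at 630 CPM in CD163_FL and 30.6 CPM in CD163_NC (4.36, comparison 1.82). Runx2, a transcription factor best known from bone-forming cells, stood at 337 and 22.9 CPM (3.88, comparison 3.14). Slco3a1, an organic anion transporter, stood at 768 and 76.5 CPM (3.33, comparison 2.51). The CD163_NC levels of these genes rest on few UMIs. Phlpp1 had 4 UMIs of 3 cells there, 50% of them in 1 cell, and Slco3a1 10 UMIs of 8 cells. Runx2 had 3 UMIs of 3 cells, the same as the floor set for a count of 0. Ccdc162 and Crybg3 stood at 296 and 200 CPM with 0 UMIs in CD163_NC, at least 3.69 and 3.12 against the floor of 3 UMIs. Saa3, an acute-phase serum amyloid A, stood at 232 CPM in CD163_FL and 7.65 CPM, 1 UMI, in CD163_NC. Lower in CD163_FL were Slfn4, a Schlafen family gene, at 26.4 and 528 CPM (-4.32, comparison -2.77), Ifi27l2a, an interferon-induced gene, at 993 and 6365 CPM (-2.68, comparison -2.22), and Bst2, tetherin, at 165 and 1155 CPM (-2.81, comparison -1.88). Lst1, a leukocyte transcript, stood at 247 and 1362 CPM, Spon1, an extracellular matrix protein, at 96.9 and 742 CPM, Ifi213 at 61.3 and 383 CPM, and Hp, haptoglobin, at 101 and 788 CPM. Gene length moved with the direction: the 12 leading higher genes spanned a median of 85.1 kb and the 12 leading lower genes 3.93 kb, against 31.0 kb over all tested genes with a position.

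Depth and quality of the cells were as follows. The Spp1/Mmp12 macrophages held 1289883 UMIs in CD163_FL (800 to 27104 per cell) and 130720 in CD163_NC (2511 to 14058 per cell), with medians of 2408 and 2666 genes. Mitochondrial UMIs were a median of 1.94% in CD163_FL and 0.871% in CD163_NC, and Malat1, a nuclear noncoding RNA, 0.797% and 1.24%. The comparison macrophages moved the same way, with 1.86% and 1.01% mitochondrial and 0.725% and 1.08% Malat1 UMIs. A doublet caller marked 4 of 159 and 0 of 15 Spp1/Mmp12 macrophages. The libraries shared 49 cell barcodes, 1 of them a Spp1/Mmp12 macrophage of CD163_FL. These measures differ between the libraries together with the genes above, and their part in those differences was not tested.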

How the data were processed

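The data are single-cell RNA sequencing of CD45+ cells from 2 libraries, made with a 10x 3′ kit per the labels' protocols. The deposited values are raw counts of UMIs per gene and barcode over 32285 genes. The matrices were written by Cell Ranger 7.1.0, per the file headers, and mm10 and Seurat 4 are named without a role in the submitters' processing notes. CD163_FL held 15270 barcodes and 131306539 UMIs, CD163_NC 10390 barcodes and 94729872 UMIs.

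Quality limits left 14379 and 10012 cells. Doublets were called with Scrublet in scanpy 1.11.5 (4.41% of CD163_FL, 2.50% of CD163_NC, below the 12.2% and 8.31% expected) and kept, since the rule keeps them. UMIs were summed over cells and divided by their total (CPM). Shares have exact binomial, levels exact Poisson, log2 ratios exact conditional binomial intervals. A side with 0 UMIs was set to a floor of 3 UMIs, so that its ratio is a bound. The ratio script was tested on simulated counts. Python 3.11.15, numpy 2.4.6, scipy 1.17.1 and pandas 2.3.3 were used. Positions are from the GENCODE mouse annotation of the mm10 assembly.

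The cells, the gene lists and the tests were chosen with earlier results of these data known. Named genes are the 12 highest and 12 lowest per comparison (6 each for Spp1-only over Mmp12-only) by the interval bound nearest 0, given 50 or more UMIs in the higher group and no less than 0.5 times the CPM of all cells. Left out were genes of the rule, ribosomal and mitochondrial genes, Xist, Tsix and Y-linked genes (other X-linked genes, such as Cybb, stayed in), antigen receptor segments and unnamed models. List genes are named as well, and which ones are given with values was decided after their values were seen. Of the list genes 1 was not in the files. Alternatives covered scaling, filters, weighting, doublets, thresholds of the rule and the choice of comparison cells. Some genes that meet the naming rule are not reported here.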

Additional observations from a re-analysis of the deposited data

Results flagged for a closer look

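Hp, which encodes haptoglobin, the plasma protein that carries free haemoglobin to CD163, stood in opposite directions in the 2 libraries. It was at 101 CPM in the Spp1/Mmp12 macrophages and 203 CPM in the comparison macrophages of CD163_FL, a log2 ratio of -1.01. In CD163_NC it was at 788 CPM and 334 CPM, a log2 ratio of 1.24. In CD163_NC 51.5% of the Hp UMIs of the Spp1/Mmp12 macrophages came from 1 cell. The difference between the libraries was not tested, since there is 1 library per group.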

How the results depend on the processing

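The ratio of the cells' share, CD163_FL over CD163_NC, lay between 6.02 and 8.63 in all but 2 alternatives. It was 48.0 with at least 10 Spp1 and Mmp12 UMIs and 28.8 with cells thinned to 1000 UMIs, each with 1 cell left in CD163_NC.

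For CD163_FL over CD163_NC in the Spp1/Mmp12 macrophages (858 higher, 359 lower), 272 were higher with at least 10 Spp1 and Mmp12 UMIs, where Spon1 turned to 0.031. There were 192 lower under median-ratio and 195 under TMM scaling, and 2555 with no filter. At a 1.5-fold limit 1371 were higher and 781 lower, and at a mean of 200 CPM, chosen after seeing the data, 158 and 104.

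For the Spp1/Mmp12 over the comparison macrophages in both libraries (2 higher, 2 lower), 1 gene was higher without doublets, under median-ratio scaling, under TMM scaling, and with comparison cells chosen by a Csf1r UMI. With at least 10 macrophage UMIs 1 was higher and 4 lower, with no filter 148 and 51, with cells weighted equally 4 and 4, without lymphocyte-marked cells 0 and 10, at 1.5-fold 29 and 34, with comparison cells from 3 macrophage UMIs 1 and 107, and at 200 CPM 0 and 0. In CD163_FL alone (35 and 13), 26 were lower with at least 10 macrophage UMIs, 1411 were higher and 803 lower with no filter, 57 higher with equal weights, 42 lower without lymphocyte-marked cells, 244 and 150 past 1.5-fold, 146 lower with comparison cells from 3 macrophage UMIs, and 1 and 0 past 2-fold at 200 CPM. In CD163_NC alone (225 and 634), no filter gave 1351 and 1133, 1.5-fold 774 and 1260, comparison cells from 3 macrophage UMIs 533 and 1170, and 200 CPM 28 and 10. Lymphocyte-marked cells were left out of the Spp1/Mmp12 macrophages only, not of the comparison macrophages.

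For Spp1-only over Mmp12-only cells (66 and 52), 200 CPM gave 5 and 7 and 1.5-fold 302 and 265. Aff3 reversed to 0.48 with at least 10 macrophage UMIs and to 2.99 without lymphocyte-marked cells. The filters and the fold limit change the number of genes tested or counted by construction. For the others the cause was not tested.

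Of 179 recomputed list medians 166 moved by under 0.5 on the log2 scale. With at least 10 Spp1 and Mmp12 UMIs (1 cell in CD163_NC) the median was 0 for metalloproteinases and resident macrophage genes, 0.61 for osteopontin receptors, 0.09 for arginine and itaconate, 0.05 for interferon response, 2.34 for MHC class II and 1.56 for protease inhibitors. With no filter it was 0 for metalloproteinases and -0.11 for growth factors, which stood at -0.24 at 200 CPM. Resident macrophage genes stood at -1.39 without lymphocyte-marked cells and -1.92 at 200 CPM, where phospholipase C genes stood at 0.90 (2 genes) and osteoclast genes at 1.75 (1 gene). The lipid-associated median also turned to 0.08 with cells weighted equally and 0.12 without lymphocyte-marked cells, and the cell cycle median to -0.0023 without those cells. The 15 cells of CD163_NC set the limit: at the floor of 3 UMIs a count of 0 there allows up to 22.9 CPM, and 1 cell often held much of a gene's count. No paired analysis was possible because each group is 1 library.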
